A study of Homo sapiens with 6 samples.

Results

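Small nucleolar RNA host genes were examined in REH cells in which the ETV6/RUNX1 fusion had been silenced. Small nucleolar RNAs (snoRNAs) guide the chemical modification of ribosomal RNA, and most are cut out of introns while the host transcript is spliced. The host genes described here, GAS5, SNHG1, SNHG3, SNHG5, SNHG6, SNHG7, SNHG8, SNHG12, SNHG15 and ZFAS1, leave a spliced RNA without a long reading frame. Several such RNAs are known to be degraded by nonsense-mediated decay when they are translated, so that their abundance follows translation as well as transcription. GAS5 was first described as a transcript that accumulates in growth-arrested cells.

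A catalogue probe was taken as a member where the RefSeq accession of its design maps to one of these 10 genes. This gave 11 of the 34134 catalogue probes on the array, with 2 probes for SNHG7 (A_24_P352116, designed on NR_003672, and A_33_P3280927, designed on NR_024542) and 1 for each other gene. All 11 probes were among the 29069 probes retained after a filter against the negative controls, and all were well above background on every array by the scanner software's flag.

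REH, an established human leukemia line of B-cell precursors, carries the ETV6/RUNX1 fusion and has lost the other ETV6 allele. Of 6 arrays, 3 were from cells with a non-targeting shRNA (control) and 3 from cells with an shRNA against the ETV6/RUNX1 fusion (knockdown), each numbered 1 to 3. According to the study's methods, both shRNAs were ETV6 shRNAs in GFP vectors, the control being the one that missed the fusion transcript, and GFP-positive cells were sorted. All cells came from 1 line, each group had 1 shRNA, and fewer cells of a kind cannot be told apart from less RNA per cell.

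All arrays lay on 1 slide, with a median raw intensity of 66 to 75 and between 45.7% and 50.9% of probes well above background. Control replicates 1 and 2 lay in slide row 1, and control replicate 3 and all knockdown arrays in slide row 2. Slide row can therefore not be fully told apart from knockdown. Of 12 B-cell precursor markers, 10 were well above background on all 6 arrays (CD34 and VPREB1 were not), as were 3 of 6 T-cell, 3 of 5 myeloid and 3 of 4 erythroid markers. CD3E, CD3G, CD33, ELANE and HBB were well above background on none. The retained ETV6 probe measured 7.92, 8.05 and 8.37 in control and 7.50, 7.46 and 7.29 in knockdown (log2 difference -0.70, limma adjusted p = 0.0571), lower on every knockdown array but not past the threshold of 0.05. Where this probe lies relative to the fusion breakpoint was not analysed here.

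Many snoRNA hosts are transcribed from a start site with a C followed by pyrimidines, the 5' terminal oligopyrimidine (TOP) feature of ribosomal protein genes. Start-site windows are shown for the 3 genes with a probe called in the comparison of replicate 1 below. They are also shown for SNHG5 and ZFAS1, whose values ran most closely together. Each holds 30 bases before the annotated RefSeq start and 30 from it on, read 5′ to 3′ on the gene's strand in GRCh38.p14, and capitals mark the pyrimidine run that begins with C at the start.
GAS5 (chr1:173869016-173869075, minus strand): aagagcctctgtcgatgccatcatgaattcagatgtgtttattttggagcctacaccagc
SNHG5 (chr6:85678704-85678763, minus strand): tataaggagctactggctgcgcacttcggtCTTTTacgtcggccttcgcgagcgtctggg
SNHG7 (chr9:136728155-136728214, minus strand): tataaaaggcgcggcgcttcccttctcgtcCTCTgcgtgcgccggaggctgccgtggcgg
SNHG12 (chr1:28581844-28581903, minus strand): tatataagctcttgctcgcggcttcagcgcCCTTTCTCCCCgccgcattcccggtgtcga
ZFAS1 (chr20:49278612-49278671, plus strand): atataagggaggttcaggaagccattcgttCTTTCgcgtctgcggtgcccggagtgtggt

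Of the 8 host genes with a promoter in the table, 4 (SNHG5, SNHG7, SNHG12 and ZFAS1) had a run of at least 4 bases, as did 5.45% of all 35116 promoters. The run was 11 bases in SNHG12, 5 in SNHG5 and in ZFAS1 and 4 in SNHG7, and the annotated GAS5 start had none. Only annotated starts were read, and whether REH cells use these or other starts of GAS5 and the other genes was not analysed here. Promoters of SNHG6 and SNHG15 were not analysed here. The RUNX core motif TGTGGT, searched on both strands from 250 bases before to 50 after the start, was in GAS5, SNHG5 and ZFAS1 (3 of 8) and in 13.1% of all promoters. TGATGCAA, a site bound by the amino acid response factor ATF4, was in 0 of 8 and in 0.866% of all promoters. A match describes these letters only.

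To determine whether the host genes change when the fusion is silenced, control and knockdown were compared for each probe. None of the 11 probes was called at an adjusted p under 0.05 (limma, adjusted over all retained probes), where 1.55% of all retained probes were called, 0.396% higher and 1.16% lower. At an unadjusted p under 0.05 the count was also 0, against 12.2% of all retained probes, and the lowest adjusted p was 0.756. Log2 differences of knockdown minus control ran from -0.10 in SNHG6 to 0.15 in SNHG7 (A_24_P352116), with a median of 0.02 against -0.00374 over all retained probes. The control and knockdown arrays overlapped for all 11 probes, while they did not overlap for 18.6% of retained probes.

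GAS5 measured 16.17, 15.80 and 15.69 in the control arrays and 16.18, 15.59 and 15.72 in the knockdown arrays, as generalised log2 values. One array of each group was high and the other 4 lay close together. The difference was -0.06 (95% interval -0.49 to 0.37, adjusted p = 0.926).

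SNHG12, the host of SNORA61 and SNORA44 among others, measured 12.23, 12.92 and 13.00 in control and 12.33, 12.98 and 13.10 in knockdown. Here replicate 1 was the low array of each group. Knockdown differed from control by 0.09 (95% interval -0.51 to 0.68, adjusted p = 0.925), and the pairs with the same replicate number by 0.10, 0.06 and 0.10.

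For SNHG7, the host of SNORA17A and SNORA17B, the probe A_33_P3280927 measured 11.54, 10.83 and 10.89 in control and 11.73, 10.84 and 11.07 in knockdown. The probe A_24_P352116 measured 9.24, 9.58 and 9.80 in control and 9.49, 9.78 and 9.83 in knockdown. Replicate 1 was the highest array of its group for the first probe and the lowest for the second. Their differences after knockdown were 0.13 (95% interval -0.49 to 0.74) and 0.15 (95% interval -0.22 to 0.53). SNHG12 and both SNHG7 probes were the 3 probes with a higher value on the knockdown array in each of the 3 pairs, and none was lower in each. The shares of all retained probes that did so are not given here, so these counts do not set the host genes apart.

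SNHG5, the host of SNORD50A and SNORD50B, measured 15.45, 15.09 and 15.08 in control and 15.59, 14.89 and 15.20 in knockdown. ZFAS1, the host of the SNORD12 family, measured 14.73, 14.38 and 14.42 in control and 14.78, 14.05 and 14.43 in knockdown. In both genes replicate 1 was highest in each group and knockdown replicate 2 was the lowest of all arrays. Knockdown minus control was 0.02 for SNHG5 (95% interval -0.42 to 0.46) and -0.09 for ZFAS1 (95% interval -0.53 to 0.35).

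SNHG1, which holds the SNORD25 to SNORD31 series, measured 14.31, 14.02 and 14.14 in control and 14.44, 13.81 and 14.35 in knockdown. SNHG3, the host of SNORA73A and SNORA73B, measured 14.29, 13.90 and 14.01 in control and 13.99, 13.90 and 14.38 in knockdown. In SNHG1 replicate 1 was the highest array of each group, and in SNHG3 it was the highest of the controls and between the others in knockdown. Their differences were 0.04 (95% interval -0.36 to 0.45) and 0.02 (95% interval -0.34 to 0.39).

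SNHG6, the host of SNORD87, measured 14.18, 14.10 and 13.99 in control and 14.24, 13.73 and 13.99 in knockdown. SNHG8, the host of SNORA24, measured 15.11, 15.00 and 15.10 in control and 15.16, 14.84 and 14.94 in knockdown. SNHG15, the host of SNORA9, measured 12.06, 12.23 and 12.34 in control and 12.26, 12.26 and 12.31 in knockdown. Arrays of SNHG8 and SNHG15 lay closest together, and their differences after knockdown had the narrowest intervals, -0.35 to 0.17 for SNHG8 and -0.18 to 0.31 for SNHG15. For SNHG6 the interval was -0.43 to 0.22.

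**Figure D1:**
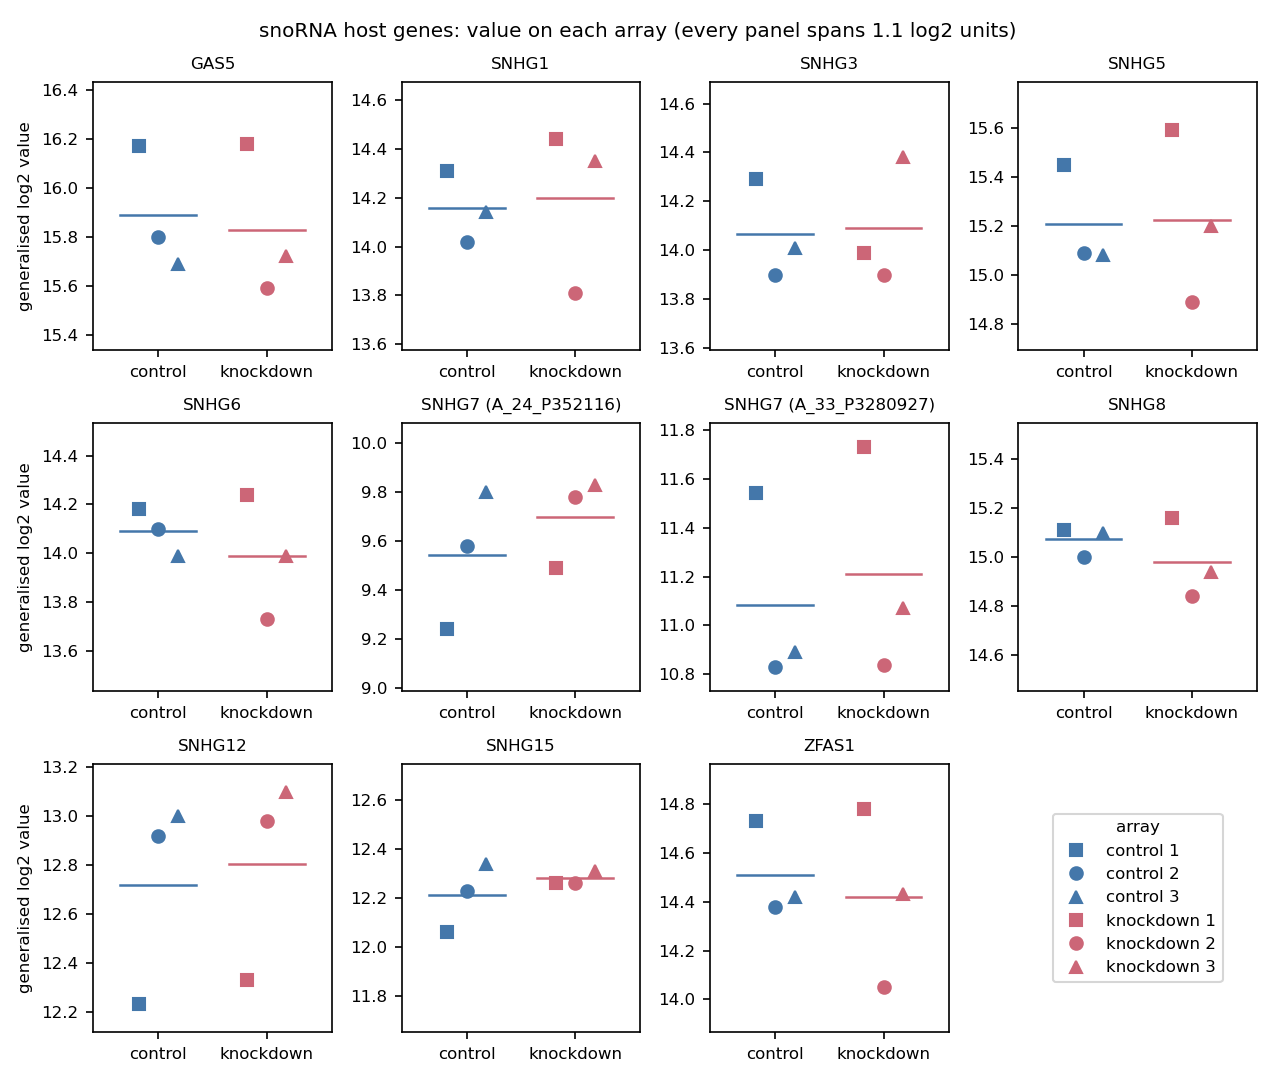
Generalised log2 value of each of the 11 probes on each of the 6 arrays, control in blue and knockdown in red, with squares, circles and triangles for replicates 1, 2 and 3 and lines for group means. The groups overlap in every panel, and the squares lie apart in panels such as GAS5 (16.17 and 16.18) and SNHG12 (12.23 and 12.33).

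The labels number the arrays of each group 1 to 3. With the replicate number as a block, 881 probes in place of 452 were called after knockdown, and again 0 of the 11 member probes, with a lowest adjusted p of 0.436 for SNHG7 (A_24_P352116). The intervals above come from the fit without the block, which leaves the replicate number out. The SE of the SNHG12 difference, for example, was 0.258 without the block and 0.0843 with it. The median within-group SD of the 11 probes was 0.259, against 0.151 for all retained probes and 0.134 for probes in the same range of values. Of the 11, 9 lay above the latter value, and SNHG15 (0.104) and SNHG8 (0.125) lay below it. The highest SD was 0.431 in SNHG7 (A_33_P3280927).

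Next, replicate 1 of both groups was compared with replicates 2 and 3, with group as a term. That it was replicate 1 which was set apart had been chosen with earlier results of these data known, so the adjusted p-values of this comparison do not allow for that choice. Of the 11 probes, 2 were called higher in replicate 1 (GAS5 and SNHG7 A_33_P3280927) and 1 lower (SNHG12). Over all retained probes, 4.66% were called, 3.06% higher and 1.6% lower. Before adjustment, 6 of the 11 probes and 23% of all retained probes had a p under 0.05. The member median was 0.26, against 0.00465 over all retained probes.

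SNHG12 was lower in replicate 1 by 0.72 on the log2 scale (1.64-fold, 95% interval -0.93 to -0.51, adjusted p = 0.0107). The difference was -0.73 within control and -0.71 within knockdown. Both replicate 1 arrays, at 12.23 and 12.33, lay below the other 4, which averaged 13.00 ± 0.07 (SD, n = 4).

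SNHG7 was higher in replicate 1 by 0.73 at A_33_P3280927 (1.66-fold, 95% interval 0.49 to 0.97, adjusted p = 0.0145). At A_24_P352116 the difference was -0.38 (95% interval -0.62 to -0.15, adjusted p = 0.0808), which was not past the threshold. The probes thus moved apart: their values correlated at r = -0.724 over the 6 arrays, and the difference between them was 1.11 larger in replicate 1. Averaged over both probes, SNHG7 differed by 0.17 (adjusted p = 0.319). The probes were designed on different RefSeq transcripts, and which exons they read was not analysed here.

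GAS5 was higher in replicate 1 by 0.47 (1.39-fold, 95% interval 0.26 to 0.69, adjusted p = 0.0375), by 0.42 within control and 0.53 within knockdown. This call depended on the filter. With the negative control filter on the raw intensity scale, which was the first one run and was replaced after these values had been seen, 32528 probes were retained and the adjusted p was 0.052. The difference itself kept its sign in the 17 distinct alternative fits, where slide row as a term gave the same fit as leaving out control replicate 3 and was counted once with it. The call was lost in 12 of them, among them every one that left out 1 array. The call of SNHG12 was lost in 4 of 17, and that of SNHG7 A_33_P3280927 in 7 of 16, averaging over probes being left out for this gene.

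**Figure D2:**
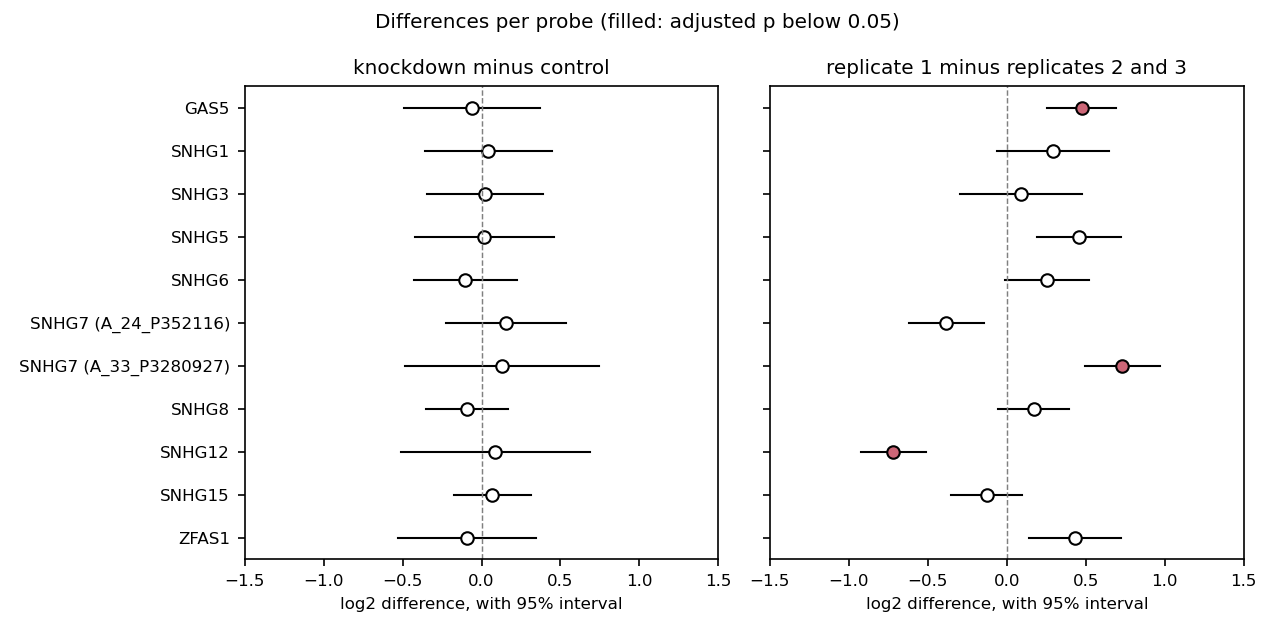
Log2 difference of each probe with its 95% interval, for knockdown minus control on the left and replicate 1 minus replicates 2 and 3 on the right, filled where the adjusted p was under 0.05. Every interval on the left spans 0, and on the right GAS5 (0.47), SNHG7 A_33_P3280927 (0.73) and SNHG12 (-0.72) are filled.

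No single call held under every setting. Without control replicate 1 or without knockdown replicate 1, either of which leaves a lone replicate 1 array that is assumed to vary like the others, 0 of the 11 probes were called. Without control replicate 2 the count was 1. The share of all retained probes called fell as well in these fits, from 4.66% to 2.12%, 1.23% and 0.987%. SNHG5 (0.46, adjusted p = 0.0688) and ZFAS1 (0.43, adjusted p = 0.0995) were higher in replicate 1 in value and did not pass, nor did SNHG1 (0.29), SNHG6 (0.26), SNHG8 (0.17), SNHG3 (0.09) and SNHG15 (-0.13). Both replicate 1 arrays lay outside the range of the other 4 for 8 of the 11 probes, 6 above and 2 below, where 28.1% of retained probes did so (14.7% above and 13.4% below). In an exact two-sided permutation test of a single probe the smallest p possible is 0.0667 for 2 arrays against 4 and 0.1 for 3 against 3.

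A custom probe for SNHG5, which the rule on catalogue probes leaves out, measured 14.55, 14.13 and 14.00 in control and 14.60, 13.91 and 14.26 in knockdown. It followed the catalogue probe across the 6 arrays (r = 0.980) and was also highest in replicate 1 of each group. Its replicate 1 difference was 0.50 (adjusted p = 0.0626) and its knockdown difference 0.03.

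To test whether the change after knockdown differed between replicate 1 and the others, the interaction was fitted. None of the 11 probes was called, where 0.434% of probes were (0.165% higher and 0.268% lower), and at an unadjusted p under 0.05 the count was 0, against 8.12% of all probes. The largest difference in size was that of SNHG3 (-0.48, 95% interval -1.18 to 0.21, adjusted p = 0.697), in which replicate 1 was 0.33 higher within control and 0.15 lower within knockdown. For the other 10 probes the replicate 1 difference had the same sign in both groups. The share of all retained probes with the same sign in both groups is not given here, so this count does not set the host genes apart. The interaction fit leaves 2 residual degrees of freedom.

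**Figure D3:**
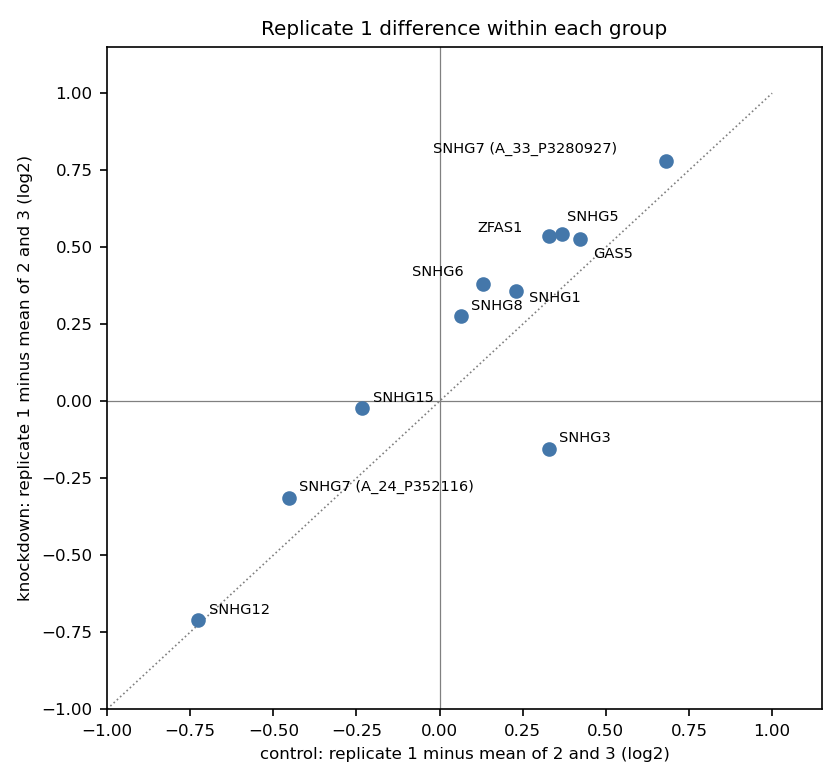
Replicate 1 minus the mean of replicates 2 and 3 (log2), within control on the x axis and within knockdown on the y axis, 1 point for each probe, with the dotted line marking equal differences. SNHG3 (0.33 and -0.15) is the 1 point with opposite signs, and SNHG12 (-0.73 and -0.71) lies at the other end from SNHG7 A_33_P3280927 (0.68 and 0.78).

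Across the 6 arrays, the 45 pairs of host genes correlated with a median r of 0.461, from -0.958 for GAS5 with SNHG12 to 0.967 for SNHG5 with ZFAS1. In 5 pairs r was over 0.9, and in 15 it was below 0. The arrays share 1 slide and 3 replicate numbers, so these values describe the 6 arrays. Of 13995 other genes, TSG101, FLCN, HSPA13 and LHPP were among the 5 closest to the mean of the centred host gene values, with r from 0.981 to 0.996. These were picked for the highest r over 6 arrays, where some r this high can arise by selection. The mean also combines host genes that ran in opposite directions.

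The snoRNAs themselves were measured by catalogue probes for SNHG3 only. SNORA73A differed by -0.20 after knockdown (adjusted p = 0.645) and by 0.07 in replicate 1 (adjusted p = 0.823). At the 2 SNORA73B probes, knockdown differences were -0.09 and -0.14 and replicate 1 differences 0.14 and 0.06. None was called, and whether these probes read the mature snoRNA or the unspliced host was not analysed here.

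Protein-coding genes that overlap a host gene or lie within 5 kb of it had 9 retained probes, for 7 genes. None was called after knockdown, and 1 was called in replicate 1. This was SLC3A2, the neighbour of SNHG1 and the heavy chain of amino acid transporters, which measured 12.69, 11.06 and 11.09 in control and 12.43, 11.55 and 11.69 in knockdown. It was higher in replicate 1 by 1.22 (adjusted p = 0.0165), whereas SNHG1 differed by 0.29 (adjusted p = 0.293). TRNAU1AP, which overlaps SNHG12, differed by -0.03, and ZBTB37, which overlaps GAS5, by 0.03. RCC1 (-0.17), DIPK1B (0.08), MYO1G (0.14) and the 3 probes of ZNFX1 (0.06 to 0.25) were not called either.

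Other gene groups were set beside the host genes in the same comparison of replicate 1. Among 8 retained probes of other non-coding snoRNA hosts, EPB41L4A-AS1 was higher by 0.89 (adjusted p = 0.0204) and SNHG9 was lower by 0.55 on the log2 scale (adjusted p = 0.0241), with a list median of -0.18. Protein-coding snoRNA hosts, among them ribosomal protein and translation genes, had 0 of 87 probes called and a median of 0.06; EEF2 (0.52, adjusted p = 0.0550) and RPL13 (0.40, adjusted p = 0.0647) came closest. Of 33 probes of TOP mRNAs without a snoRNA, 1 was called (1 of 3 probes of EIF4B, 0.52), and the median was 0.10. The other EIF4B probes were at 0.39 and 0.10 and were not called. Among the other genes of this list, EIF3F had the lowest p (0.32, adjusted p = 0.0814). Probes of proteins that assemble snoRNPs had 0 of 21 called and a median of -0.07, with NOP56 at -0.28 and NHP2 at -0.29.

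Nonsense-mediated decay factors had 0 of 31 probes called in replicate 1 and a median of 0.04, with RNPS1 at -0.31 and XRN1 at 0.21. Of 11 probes of known decay targets, 3 were called higher, 2 of ATF3 (1.14 and 0.75) and 1 of ATF4 (0.76), both also genes of the stress response, and the list median was 0.11. The other ATF3 probes were at 0.45 and -0.17, and GADD45A (-0.24), MAP3K14 (-0.21) and GADD45B (-0.20) were lower in value, none of them called. TBL2 (0.08) and the DNAJB2 probes (0.11 and 0.16) were higher in value and were not called either. Amino acid response genes, which ATF4 drives, had 21 of 27 probes called higher and a median of 1.40, led by GPT2 (3.10), SLC6A9 (3.02), TRIB3 (2.95) and CHAC1 (2.61). This response and the 3 calls among the host genes, which went both ways, were on the same 2 arrays, and the part of one in the other was not tested. Of 16 probes of B-cell precursor markers, 10 were higher in value in replicate 1, with a median of 0.10, and the called ones were both lower, 1 of IGLL1 (-0.57) and 1 of MME (-0.52). Their part was likewise not tested.

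After knockdown the groups of snoRNA, translation, decay and amino acid response genes held 1 called probe, where 1.55% of all retained probes were called. These groups, in the order of the medians below, had 8, 87, 33, 21, 31, 11 and 27 retained probes. UPF2, a core factor of nonsense-mediated decay, fell by 0.56 on the log2 scale (adjusted p = 0.0375), from 8.37, 8.46 and 8.32 to 7.83, 7.91 and 7.73, at A_33_P3279049. The other UPF2 probes were also lower in value, from -0.24 to -0.50, and were not called. SMG6, the endonuclease of this pathway, had a difference of 0.44 (adjusted p = 0.170). The medians were -0.04 for other non-coding hosts, -0.07 for protein-coding hosts, -0.10 for TOP mRNAs without a snoRNA, -0.06 for snoRNP proteins and -0.07 for nonsense-mediated decay factors. They were 0.05 for decay targets and 0.20 for amino acid response genes, and the host genes, at 0.02, lay between. B-cell precursor markers had a median of 0.18. DANCR, a non-coding host, measured 13.15, 13.24 and 13.27 in control and 12.48, 12.90 and 13.02 in knockdown (-0.42, adjusted p = 0.286). SNHG20, another such host, differed by 0.18 (adjusted p = 0.665).

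In the other groups the genes of lowest p after knockdown, none of them called, were TAF1D (-0.29) and RPL21 (-0.28) among protein-coding hosts, RPS19 (-0.22) and RPLP0 (-0.15) among TOP mRNAs, and PHAX (-0.23) and NOP10 (-0.17) among snoRNP proteins. They were MAP3K14 (0.35) and ATF3 (-0.25) among decay targets, and DDIT4 (0.76) and VLDLR (-0.22) among amino acid response genes. Of the cell type markers, MPO, the myeloperoxidase of myeloid cells, was called after knockdown. It measured 14.02, 13.97 and 13.87 in control and 12.30, 11.68 and 11.81 in knockdown, and fell by 2.02 on the log2 scale (adjusted p = 0.0013). The other retained myeloid markers were not called, and the part of this change in the host gene values was not tested.

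**Figure D4:**
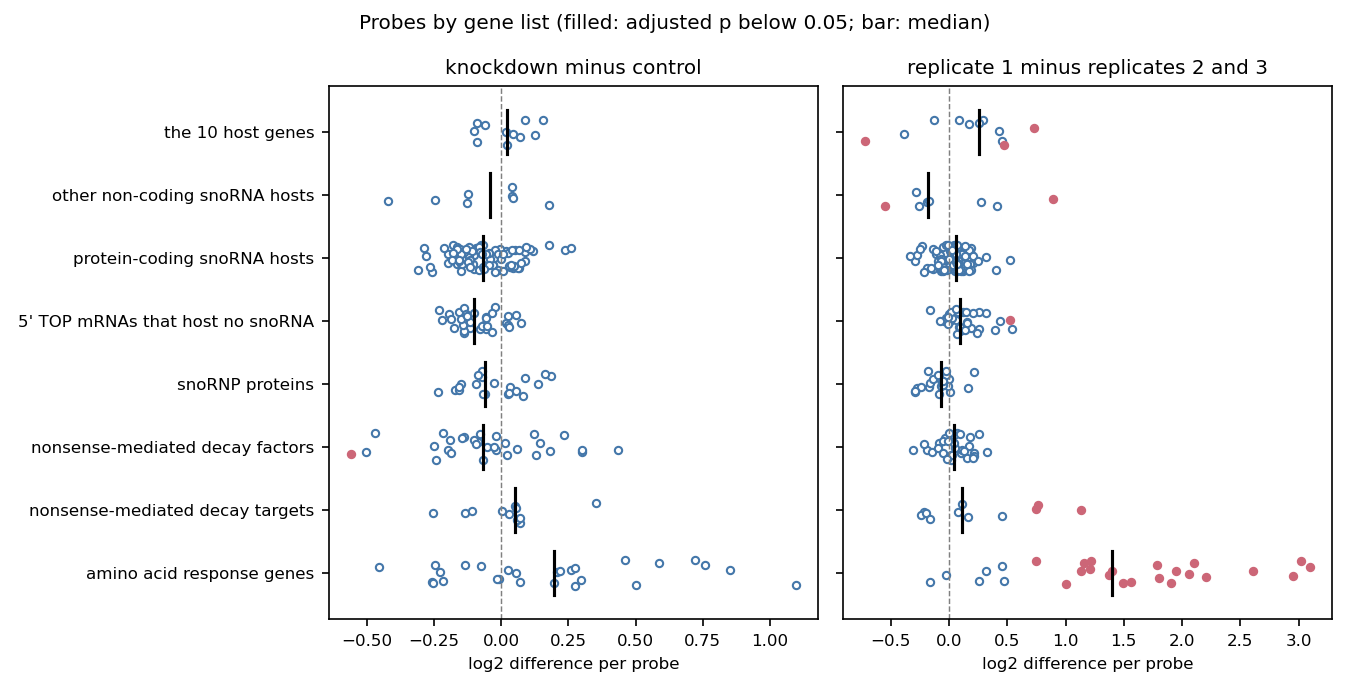
Log2 difference of each retained probe by gene list, for knockdown minus control on the left and replicate 1 minus replicates 2 and 3 on the right, with black bars for medians and filled points for an adjusted p under 0.05. On the right the amino acid response probes centre on 1.40, while the host genes spread on both sides of 0, from -0.72 to 0.73.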

How the data were processed

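RNA from 6 samples was hybridised in 1 colour to a custom Agilent array. Per the file headers, spots were extracted with Feature Extraction 10.7.1.1. The intensity values of single spots that the authors deposited were not normalized between arrays. The authors also deposited log2 values for 27869 probes, which they made with VSN and a filter against negative controls.

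Here the VSN model (affine calibration of each array and inverse hyperbolic sine, fitted by maximum likelihood on the 0.9 quantile of least squares) was written anew and run on raw median intensity in R 4.3.3. Values are on a generalised log2 scale. Spots flagged as outliers were left out and spots of one probe averaged. Probes had to exceed 1.1 times the 0.95 quantile of 308 negative control spots, on the normalized scale, in no fewer than 60% of the arrays of either group, which left 29069 of 57176 probes. The scale of this filter and the trimming were settled after values had been seen: 6 filter definitions were compared by the number of probes kept against the authors' table. With either the raw-scale filter or no trimming, the calls among the host genes in replicate 1 numbered 2, against 3 as reported, and GAS5 was not called.

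Contrasts were tested with limma 3.58.1 (lmFit and eBayes, two-sided), with Benjamini-Hochberg adjustment over all retained probes and calls at 0.05. Probes were named through RefSeq accessions without versions, and 75.4% of catalogue probes had a symbol. The study calls the array samples biological triplicates, and states independent biological replicates for its protein and transcript check of the knockdown. Whether each array came from a separate transduction is not given in the sources used here, so p-values measure the spread between these samples. Same-numbered arrays deviated together from their group means (r = 0.396, 0.255 and 0.190). Deviations within a group are tied to each other through its mean, and values for arrays with unlike numbers are not given here. Whether the numbers pair the arrays is therefore not settled by these values, and the labels do not say. The fit without the replicate block was kept as the reported one, and the blocked fit is an alternative. Precision is limited by the number of arrays. The members, lists and the comparison of replicate 1 were chosen with earlier results of these data known. All 10 genes were named; for other lists, up to 4 called genes with the largest change or, with fewer than 2 called, the 2 of lowest p, except for T-cell and erythroid markers and for the interaction, where no list held a call; of the other markers the called genes are named. One gene among those with the most similar pattern is not reported here. The normalization and tests were tested on simulated data. Alternatives were other normalizations, spike-in scaling, the deposited values, other filters, a trend and robust prior, averaging of probes, slide row, the replicate block and leaving out each array.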

Additional observations from a re-analysis of the deposited data

How the results depend on the processing

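After knockdown, 0 member probes were called under every alternative run, the replicate block included. Scaling on 6 spike-in probes moved the member median from 0.02 to 0.39, and moved the median of all retained probes to 0.36 (and in the replicate 1 comparison to -0.14); it turned the split of all calls from 115 higher and 337 lower to 832 higher and 153 lower. Knockdown differences turned sign under spike-in scaling in GAS5 (0.30), SNHG6 (0.26), SNHG8 (0.27) and ZFAS1 (0.27), under the processed signal in GAS5 (0.0014), and with slide row as a term, which leaves control replicate 3 as the only control array in the comparison, in GAS5 (0.13), SNHG7 A_24_P352116 (-0.11), SNHG12 (-0.20) and SNHG15 (-0.0633). Leaving out each array gave ranges that cross 0 in GAS5 (-0.24 to 0.0801), SNHG1 (-0.0765 to 0.24), SNHG3 (-0.12 to 0.13), SNHG5 (-0.16 to 0.19), SNHG6 (-0.23 to 0.0242), SNHG7 A_33_P3280927 (-0.13 to 0.35), SNHG12 (-0.16 to 0.32), SNHG15 (-0.0089 to 0.13) and ZFAS1 (-0.27 to 0.0909).

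In the replicate 1 comparison, 3 member probes were called. The count was 1 with the processed signal at the 75th percentile, 6 with normexp and quantile normalization, 0 with the VSN model on the processed signal, 1 with spike-in scaling, 0 with no filter, 6 with an intensity trend and robust prior, and 0 to 2 when each array was left out. The reported filter scale and the trimming of the VSN model were settled after seeing the data. With the filter on the raw intensity scale, which was run first, and with the VSN model without trimming, the count was 2, and GAS5 had adjusted p-values of 0.052 and 0.0639; its lowest adjusted p was 0.00498 (trend and robust prior) and its highest 0.816 (spike-in scaling). The cause was not tested. SNHG3 turned sign with the processed signal (-0.0148), with spike-in scaling (-0.0578) and when arrays were left out (-0.15 to 0.33). Calls over all retained probes in this comparison numbered 1354, against 896 with the raw-scale filter, 910 without trimming, 273 with the processed signal, 2202 with normexp, 126 with VSN on the processed signal, 402 with spike-in scaling, 141 with no filter, 2065 with probes well above background on all arrays, 2513 with the trend and robust prior, 613 with slide row and 287 to 617 when each array was left out; after knockdown they numbered 452, against 225 with VSN on the processed signal, 985 with spike-in scaling, 224 with no filter, 245 with slide row, 881 with the block and 177 to 479 when each array was left out. The interaction gave 0 member calls under every alternative in which it could be fitted. Depth sets no further limit, since no member spot was saturated or near background.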
